A study of Mus musculus with 4 samples.

Results

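Adgrg1, Adgrg3, Plch2, Etl4, Slc24a2 and Tmem26 are 6 of the 32285 genes in the deposited RNA matrix. They were chosen by their fibroblast counts, for being higher in lung fibroblasts after knockdown of the transcriptional co-activators YAP and TAZ, so that difference is described below and not tested. The material was mouse alveolospheres, which are organoids grown from alveolar type 2 cells (AT2, the cells that make surfactant and renew the alveolar lining, taken by their LysoTracker uptake) mixed with PDGFRα-positive lung fibroblasts. In the control group (2 libraries) all cells were wildtype. In the knockdown group (2 libraries) wildtype AT2 cells were grown with fibroblasts in which YAP and TAZ had been knocked down, specifically in the PDGFRα cells, per the labels. Both groups had doxycycline at 3 µg/ml from day 7 to collection on day 14, so the drug was common to them. The labels give neither the age of the animals nor the construct behind the knockdown. They name 1 batch for all 4 libraries and call the libraries biological replicates without saying whether each came from other animals. The p-values therefore reflect only how far these libraries differ, which may in part be technical.

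The 4 libraries held 45936 cells, from 6508 to 15000 in a library, with total counts from 44284602 to 71523447 unique molecular identifiers (UMIs, one per captured RNA molecule). The fibroblast compartment took in the smooth muscle, EMT-like and unknown mesenchymal classes as well as the fibroblast classes proper. It held 12041 and 11480 control cells and 7472 and 5123 knockdown cells, at median depths of 3764, 4037, 4683 and 5836 UMIs per cell. The epithelial compartment held 2233, 1749, 2589 and 1274 cells in the same order. Libraries shared 1073 cell barcodes, with 87 to 293 in a pair. Summed fibroblast markers stood between 7087 and 10220 CPM in fibroblasts and summed AT2 markers between 24420 and 46880 CPM in epithelial cells, so both compartments carried the markers of their names. CPM are counts scaled to a common library total, over the summed cells of a compartment, class or cluster, and values are named in the order control 1, control 2, knockdown 1, knockdown 2. Of the targeted genes, Yap1 was at 61.3 and 64.9 CPM in control fibroblasts and 40.9 and 36.4 CPM in knockdown fibroblasts (log2 change -0.71 ± 0.11 SE, adjusted p = 0.00864 by edgeR's quasi-likelihood test; 0.0559 without knockdown replicate 2). Wwtr1, the gene of TAZ, was at 239 and 231 against 194 and 172 CPM, which did not pass (log2 -0.36 ± 0.13, adjusted p = 0.115). Fewer cells that carry an RNA and less RNA in each cell cannot be told apart in a summed level.

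Adgrg1 (also called GPR56) and Adgrg3 (GPR97) encode adhesion G protein-coupled receptors. Such receptors usually have a long extracellular part that is cut from the membrane-spanning part by the receptor itself. Binding of matrix or of a neighbouring cell exposes a tethered peptide that switches the receptor on. Adgrg1 binds collagen III and transglutaminase and is best known from the developing brain and from cytotoxic lymphocytes; Adgrg3 is best known from neutrophils. Plch2 encodes a phospholipase C of the eta class, which cleaves a membrane phosphoinositide into messengers that release calcium and activate protein kinase C. Slc24a2 encodes an exchanger that moves calcium out of the cell in return for sodium with the help of potassium, and is best known from neurons. Etl4, named for an enhancer trap and also called Skt (Sickle tail), is known from the notochord and the intervertebral disc. Tmem26 encodes a membrane protein used as a marker of beige fat cells.

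Adgrg1 (ENSMUSG00000031785) spans 94974751 to 95014217 of chromosome 8 on the plus strand (GENCODE coordinates, GRCm38). Adgrg3 (ENSMUSG00000060470) lies just downstream of it on the same strand, from 95017692 to 95045250, and 3475 bp separate the end of Adgrg1 from the start of Adgrg3. The promoter windows of RefSeq (build GRCm38.p6) reach from 250 bases before to 50 bases after a start site, and the 6 genes have 11 such windows. The Adgrg1 and Adgrg3 windows are shown because the pair lies head to tail and moved together. The Plch2 and Tmem26 windows are shown because they hold matches to the motifs searched. In the lines below capitals mark a match to an AP-1 motif (TGANTCA) or a TEAD motif (GGAATG), and TEAD factors are the DNA-binding partners of YAP and TAZ. The Adgrg1 windows are chr8:94976859-94977158 and chr8:94984149-94984448, the Adgrg3 window is chr8:95017442-95017741, the Plch2 window is chr4:155019379-155019678 on the minus strand, and the Tmem26 window is chr10:68723496-68723795.
Adgrg1 upstream start: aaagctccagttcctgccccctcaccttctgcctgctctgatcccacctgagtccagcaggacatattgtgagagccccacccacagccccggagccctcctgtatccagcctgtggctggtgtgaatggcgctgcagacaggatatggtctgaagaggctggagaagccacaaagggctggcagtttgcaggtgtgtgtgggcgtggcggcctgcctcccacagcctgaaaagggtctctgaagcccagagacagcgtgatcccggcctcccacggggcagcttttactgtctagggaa
Adgrg1 downstream start: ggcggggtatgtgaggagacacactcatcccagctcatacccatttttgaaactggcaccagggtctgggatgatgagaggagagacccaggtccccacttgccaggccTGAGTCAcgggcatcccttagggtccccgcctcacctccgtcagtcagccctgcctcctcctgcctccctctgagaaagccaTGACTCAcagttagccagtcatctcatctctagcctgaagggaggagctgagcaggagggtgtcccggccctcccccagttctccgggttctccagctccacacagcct
Adgrg3: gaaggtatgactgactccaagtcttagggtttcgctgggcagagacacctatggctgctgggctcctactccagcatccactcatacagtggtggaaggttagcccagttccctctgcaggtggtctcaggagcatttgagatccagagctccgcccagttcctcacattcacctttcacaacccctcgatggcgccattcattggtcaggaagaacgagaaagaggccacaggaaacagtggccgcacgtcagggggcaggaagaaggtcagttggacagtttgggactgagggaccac
Plch2 upstream start: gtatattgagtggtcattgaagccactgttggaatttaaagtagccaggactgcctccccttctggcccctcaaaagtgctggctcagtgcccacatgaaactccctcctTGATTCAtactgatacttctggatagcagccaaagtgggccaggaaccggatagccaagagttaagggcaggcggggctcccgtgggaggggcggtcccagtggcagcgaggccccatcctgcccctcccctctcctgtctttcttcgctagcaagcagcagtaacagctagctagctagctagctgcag
Tmem26: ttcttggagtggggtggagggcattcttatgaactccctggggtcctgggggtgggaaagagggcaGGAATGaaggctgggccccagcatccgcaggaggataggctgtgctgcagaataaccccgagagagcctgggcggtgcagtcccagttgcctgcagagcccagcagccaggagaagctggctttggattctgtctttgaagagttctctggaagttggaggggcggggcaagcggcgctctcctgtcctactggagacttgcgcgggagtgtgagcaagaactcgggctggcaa

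The downstream Adgrg1 window held 2 AP-1 matches, TGAGTCA beginning at base -141 and TGACTCA at base -59 from the start. The upstream Plch2 window held 1, TGATTCA at base -140. AP-1 matches stood in 2 of the 11 windows of the 6 genes and in 7.81% of all 32851 mouse promoter windows. The only TEAD match among the 11 (GGAATG, or CATTCC on the other strand) was in the Tmem26 window at base -184, against 14.7% of all windows. A C/EBP motif (TTGCNNAA, or TTNNGCAA) was in none of the 11 and in 10.8% of all windows. These letters describe the windows only, and which start site a library's reads came from was not analysed here.

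In fibroblasts, Adgrg1 was at 4.32 and 3.56 CPM in the control libraries and at 98.6 and 103.7 CPM in the knockdown libraries. The groups lay far apart, and the fitted log2 change was 4.68 ± 0.14, a 25.6-fold difference. Its neighbour Adgrg3 was close to undetected in control fibroblasts, with 5 and 6 UMIs in all (0.0896 and 0.110 CPM), and had 272 and 226 UMIs in knockdown fibroblasts (6.93 and 6.69 CPM; log2 change 6.06 ± 0.24). By log2 change these receptors ranked 10th and 4th of the 17481 genes tested in fibroblasts. Plch2, Tmem26, Slc24a2 and Etl4 ranked 13th, 14th, 16th and 48th. The genes were chosen for this rise, so their ranks describe that choice and are not evidence.

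The signalling and transport genes moved by a similar factor from low levels. Plch2 (ENSMUSG00000029055, chromosome 4, 154983115 to 155056784, minus strand) went from 1.00 and 0.895 CPM to 21.1 and 17.98 CPM, a log2 change of 4.36 ± 0.16. Slc24a2 (ENSMUSG00000037996, chromosome 4, 86983124 to 87230477, minus strand) went from 0.771 and 0.767 CPM to 11.6 and 13.1 CPM (log2 4.00 ± 0.17). In each of these genes the 2 knockdown libraries lay close to each other and well above both controls. Tmem26 (ENSMUSG00000060044, chromosome 10, 68723646 to 68782650, plus strand) was at 0.448 and 0.511 against 8.33 and 9.51 CPM (log2 4.21 ± 0.19).

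Etl4 (ENSMUSG00000036617, chromosome 2, 19909780 to 20810713, plus strand) was already well detected in control fibroblasts, with 1254 and 1364 UMIs. From 22.5 and 24.9 CPM it went to 133 and 127 CPM, a log2 change of 2.46 ± 0.11 that was the smallest of the 6. Etl4 is a gene of 900934 bp with 3 antisense noncoding genes inside it, Gm17171, Gm13335 and Gm13362. The sources used here do not say whether counting used strand; these 3 had between 0 and 3 fibroblast UMIs in every library.

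As background for these changes, 10.6% of the 17481 genes tested were called in fibroblasts at an adjusted p under 0.05 (1860 genes), and 4.42% were called higher with the knockdown (773 genes). In 29.2% of genes both knockdown libraries lay above both controls. The median log2 change of all genes was 0.01. All 6 genes passed the filter on low counts, Adgrg3 by its knockdown libraries alone. Since the 6 were chosen on this contrast, nothing is read from their share called.

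**Figure D1:**
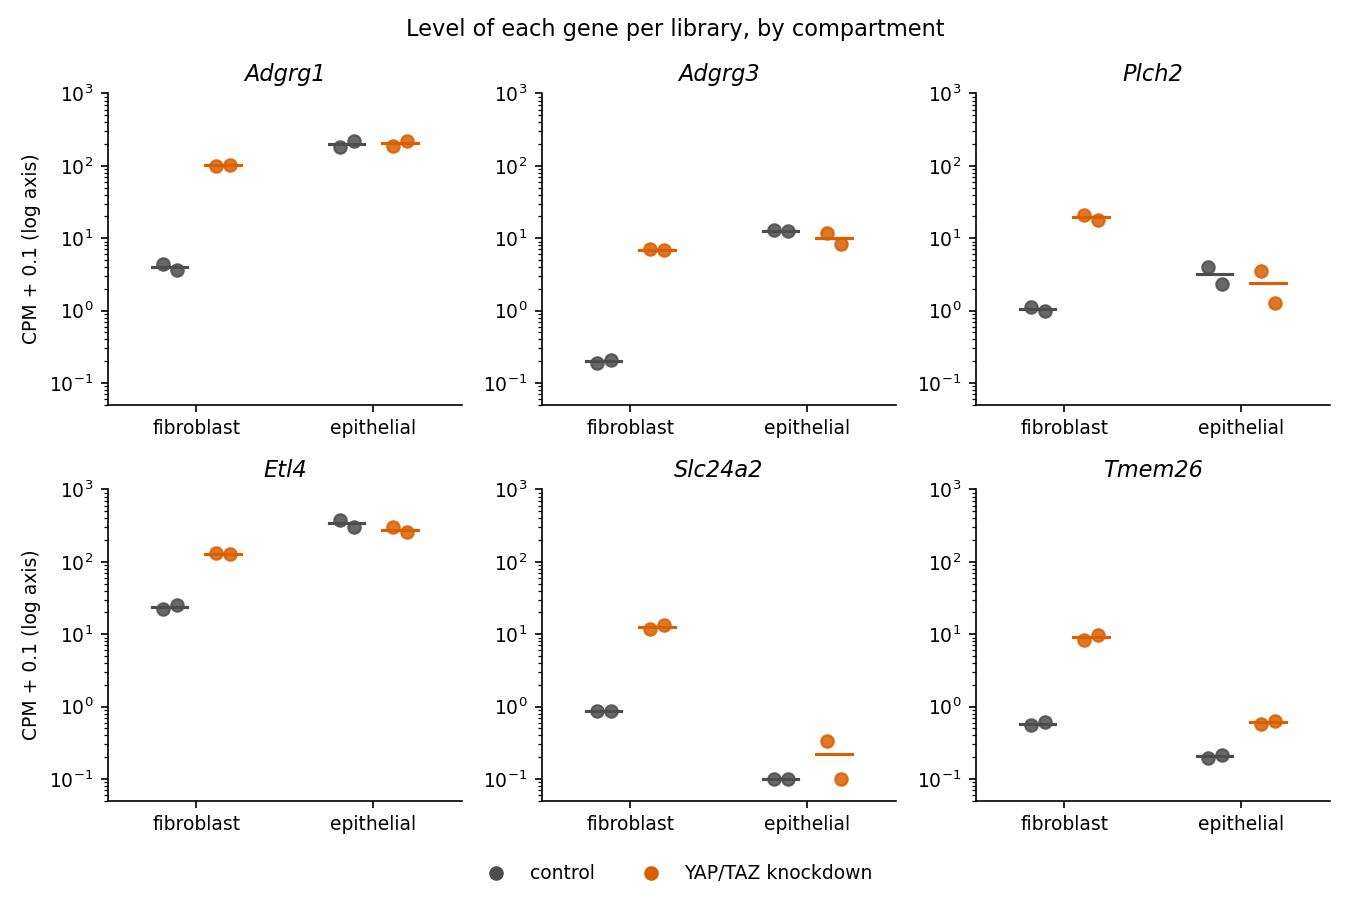
Level of each gene in each library (points; horizontal lines are group means) in CPM + 0.1 on a log axis, for the fibroblast and the epithelial compartment, in control (grey) and YAP/TAZ knockdown (orange). In fibroblasts the knockdown points stand above the control points for every gene, whereas Adgrg1 in epithelial cells lies between 182 and 222 CPM in both groups.

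The epithelial cells of the same libraries give a different picture for these genes. Adgrg1 was at 182 and 217 CPM in control epithelium and at 187 and 222 CPM in epithelium grown with knockdown fibroblasts. The groups overlapped (log2 0.04 ± 0.19, adjusted p = 0.948), and Adgrg1 RNA was present in the epithelium of all 4 libraries. Adgrg3 was at 12.8 and 12.3 against 11.8 and 8.28 CPM (log2 -0.31 ± 0.22, adjusted p = 0.608). Etl4 was at 373 and 305 against 303 and 255 CPM (log2 -0.28 ± 0.20, adjusted p = 0.608). For both genes each knockdown library lay below both controls, by an amount that did not pass the test. The share of all genes with this order was not computed.

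Plch2 was low in epithelial cells, at 3.96, 2.23, 3.45 and 1.17 CPM (log2 -0.35 ± 0.44, adjusted p = 0.775). Slc24a2 had 0, 0, 4 and 0 epithelial UMIs and Tmem26 had 1, 1, 8 and 5, both below the filter on low counts and not tested. Of the 6 genes 4 were tested in the epithelium and 0 called, 0 also at an unadjusted p under 0.05; over all 13952 genes 1.44% were called, 0.681% higher and 0.76% lower. Both knockdown libraries lay above both controls in 0 of these 4 genes and in 22.4% of all genes tested in the epithelium. The fibroblast change exceeded the epithelial change by 4.61 ± 0.17 (log2, SE) for Adgrg1, 6.32 ± 0.32 for Adgrg3, 4.67 ± 0.42 for Plch2 and 2.70 ± 0.14 for Etl4. These differences hold the contrast that chose the genes and carry no test. Over the 17188 genes of that fit 3.55% were called, 1.07% with the fibroblast effect above the epithelial one and 2.48% below. Tmem26 stood at 0.0943 and 0.117 against 0.471 and 0.539 CPM in the epithelium, from the few UMIs given above. Its epithelial level was 5.87% and 5.63% of its fibroblast level in the knockdowns. For 8 fibroblast markers the medians were 8.55% and 6.07% in the same libraries. What part of the epithelial Tmem26 UMIs came from fibroblast RNA was not tested. The RNA of Adgrg1, Adgrg3 and Etl4 was found in the epithelium of every library. In the knockdown, fibroblast Adgrg1 reached 53.1% and 46.2% of the epithelial level of its own library, Adgrg3 59.4% and 80.1%, and Etl4 44.4% and 49.4%.

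The level of epithelial RNA counted in fibroblast droplets was read from epithelial markers. Over 13 AT2 and pan-epithelial markers, the fibroblast level had a median of 3.32% and 1.90% of the epithelial level in the controls and 3.92% and 2.63% in the knockdowns. Control fibroblasts had Adgrg1 at 2.39% and 1.64% of the epithelial level and Adgrg3 at 0.704% and 0.890%. Adgrg1 thus lay within the range of the markers and below their median, and Adgrg3 below the lowest of them (1.83% and 1.12%). What part of these control counts came from epithelial RNA was not tested, and the fold differences given above take the control counts as they stand. Etl4 stood at 6.06% and 8.17%, above the marker median. One of the markers, Etv5, was at 106% and 82.6% in the controls, where fibroblasts carried it at nearly the epithelial level.

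**Figure D2:**
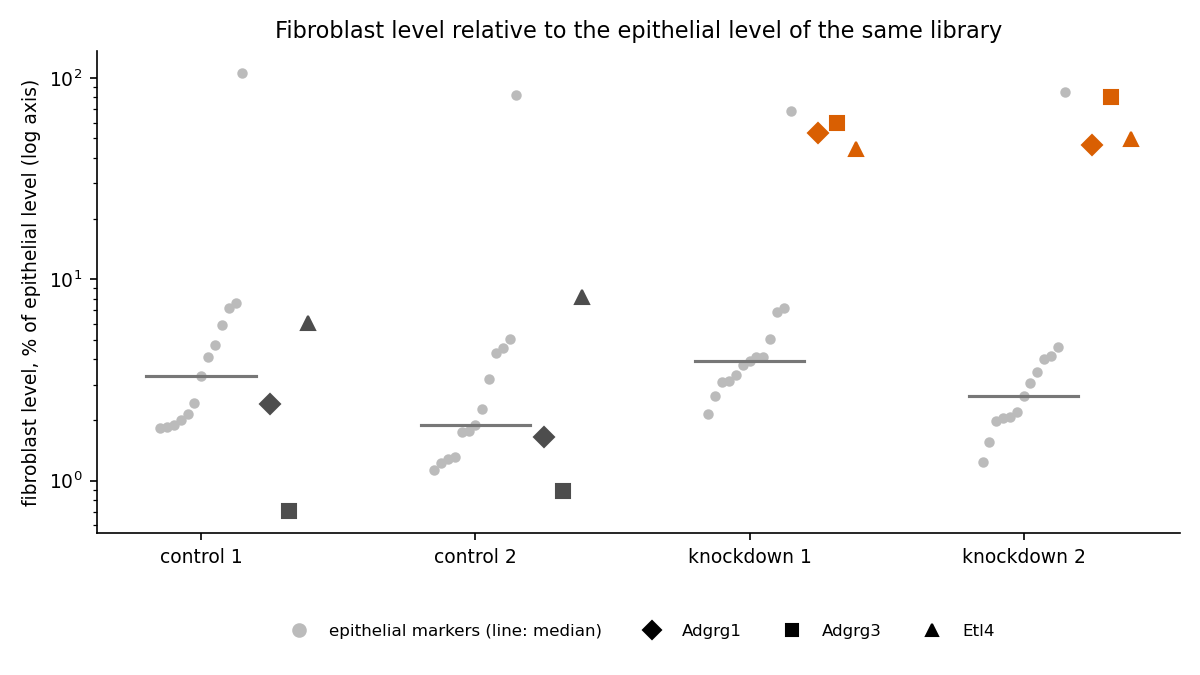
Fibroblast level as a percent of the epithelial level of the same library (log axis), for 13 epithelial markers (light points, line at their median) and for Adgrg1, Adgrg3 and Etl4 (grey in control, orange in knockdown). Adgrg1 moves from 2.39% and 1.64% in the controls, near the marker median, to 53.1% and 46.2% in the knockdowns, while the marker median stays between 1.90% and 3.92%.

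Markers of other cell types were summed in the fibroblast compartment beside these changes. The summed level of 8 AT2 markers was 811 and 867 against 2236 and 1165 CPM, with 3 of the 8 called higher. That of 6 immune markers was 12.6 and 11.5 against 39.3 and 29.0 CPM, with 3 of the 5 tested called higher and Cd3e at 0 throughout. Natural killer markers summed to 1.77, 2.39, 1.20 and 1.97 CPM with Gzma at 0, and neutrophil markers to 1.64, 1.39, 2.68 and 2.29 CPM with S100a9 at 0 in all libraries. Of 5 endothelial markers 2 were called higher, at 5.32 and 4.51 against 9.89 and 11.2 CPM in sum, and of 5 neuronal markers tested 1 was, at 11.9 and 10.54 against 14.9 and 22.2 CPM. Beige fat markers, the company in which Tmem26 is usually named, summed to 14.6 and 18.8 against 17.2 and 19.7 CPM, with 0 of 5 called higher and 1 lower. Other lists were lower with the knockdown: basal markers at 19.1 and 15.6 against 1.13 and 1.61 CPM (4 of 5 called lower), mesothelial markers at 50.2 and 40.8 against 15.7 and 13.4 CPM (3 of 4 tested) and cycling markers at 151 and 176 against 76.8 and 102 CPM (4 of 5). Secretory airway markers differed between libraries of a group, at 1373, 301, 26.8 and 289 CPM, with 0 of 6 called by edgeR. Of 5 ciliated markers 2 were called lower, and AT1 and Schwann markers each had 1 called higher and 1 lower. Pan-epithelial markers had 1 called higher and smooth muscle markers 1 called lower. Over all genes tested in fibroblasts, 4.42% were called higher and 6.22% lower. The part of these cell types in the changes of the 6 genes was not tested.

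Detection cell by cell was compared after each cell had been thinned at random to 2000 UMIs, which sets all cells to 1 depth; 45 to 896 shallower fibroblasts were left out of a library. Adgrg1 was detected in 1.03% and 0.709% of control fibroblasts and in 17.2% and 18.4% of knockdown fibroblasts. Etl4 went from 4.00% and 4.33% to 21.4% and 22.3%, and Plch2 from 0.206% and 0.184% to 4.54% and 4.17%. Without thinning, the mean share of Adgrg1 was 1.79% against 38.8%, at higher depth in the knockdown. Adgrg1-positive knockdown fibroblasts held a mean of 1.47 and 1.61 Adgrg1 UMIs, without thinning.

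The other 3 genes were detected in few cells even with the knockdown. Tmem26 went from 0.0897% and 0.138% of fibroblasts to 1.72% and 2.40%, Slc24a2 from 0.162% and 0.166% to 1.61% and 1.52%, and Adgrg3 from 0 of 11145 cells (exact 95% upper bound 0.0331%) and 0.0276% to 1.12% in both knockdown libraries. Exact 95% binomial intervals of these shares, which cover counting error only, are drawn in the plot of detection. In epithelial cells thinned in the same way, Adgrg1 was detected in 30.1%, 33.5%, 29.8% and 36.3% of cells. Slc24a2 was detected in 0 of 2069, 0 of 1649, 0 of 2547 and 0 of 1258 epithelial cells, which gives its background. Slc24a2 molecules were unevenly spread over cells, with 28 UMIs in a single fibroblast of knockdown library 2 and a mean of 2.34 UMIs over its 189 positive cells.

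**Figure D3:**
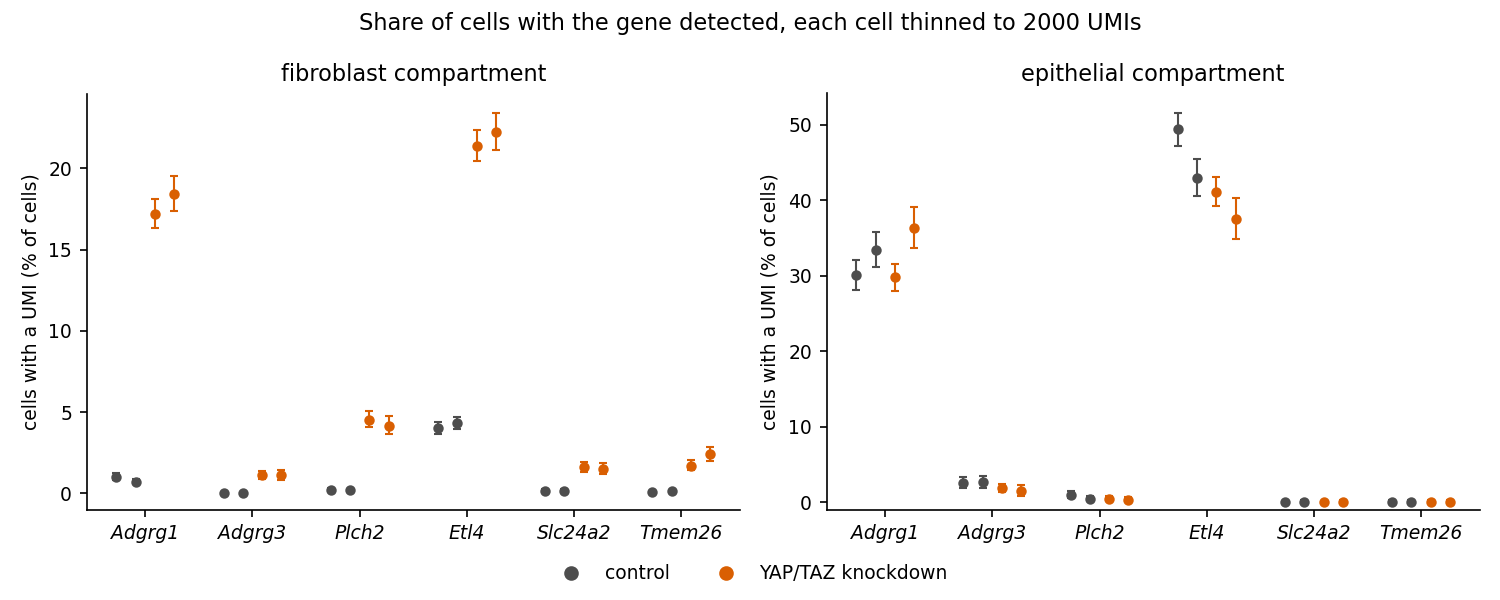
Percent of cells with at least 1 UMI of each gene after thinning to 2000 UMIs per cell, for each library (points with exact 95% binomial intervals; grey control, orange knockdown), in fibroblasts (left) and epithelial cells (right, another scale). In fibroblasts Adgrg1 goes from 1.03% and 0.709% of cells to 17.2% and 18.4%, while in epithelial cells it stays between 29.8% and 36.3%.

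Joint detection in a cell is limited by the low share of cells in which each gene is seen at this depth. At least 1 of the 6 was detected in 5.39% and 5.45% of control fibroblasts and in 38.6% and 40.3% of knockdown fibroblasts, thinned as above. At least 2 were detected together in 0.0987% and 0.101% against 7.88% and 8.37%. This share rises when the shares of the single genes rise. Its value for genes detected independently of each other was not computed, so nothing is read from it. In knockdown fibroblasts with Adgrg1 detected, Plch2 was found in 6.76% and 5.99% of cells, against 4.08% and 3.77% of cells without it. Etl4 was found in 24.8% and 27.9% against 20.7% and 21.0%, and Slc24a2 in 3.06% and 2.35% against 1.31% and 1.33%. Tmem26 was found in 2.98% and 3.53% against 1.46% and 2.15%. Adgrg3, the immediate neighbour, was found in 1.53% and 1.28% against 1.04% and 1.09%, with intervals that overlapped in both libraries. For Slc24a2 and Tmem26 the intervals overlapped in knockdown library 2. These intervals cover counting error over the cells of 1 library, and cells are not replicates. Whether intervals overlap is therefore not read as a test for any of the genes. All fibroblast classes were pooled in these shares, although levels of the genes differed between classes, and joint detection within a class was not examined. Both receptors were seen together in 19 and 12 cells.

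Cell classes were those the authors deposited. Adgrg1 was higher in both knockdown libraries than in both controls in 8 of the 8 fibroblast classes with at least 50 cells in every library, and in 11 of all 11. In the summed fibroblasts the order held for 29.2% of all genes, and the share of genes with it in every class was not computed. Among these 8 its mean knockdown level ran from 63.7 CPM in the EMT-like class to 104 CPM in the class named Fibroblasts, and its fold difference from 8.85 to 29.5. In the EMT-like class it went from 2.45 and 2.55 CPM to 64.1 and 63.3 CPM, and in the myofibroblast-like class from 4.44 and 2.77 to 61.2 and 72.6 CPM. Cycling fibroblasts and both inflammatory classes moved in the same way. The higher knockdown level of Adgrg1 was thus seen in each of the 8 classes and not in 1 of them alone. The other classes of the 11 rest on few cells. Smooth muscle had 48 and 5 knockdown cells, with 15 and 3 Adgrg1 UMIs. In control library 1, 7 Wnt4+ and 5 Tgfbi+ cells had 0 Adgrg1 UMIs, with exact upper bounds of 189.8 and 137.6 CPM. Knockdown library 1 stood below these bounds, at 144.8 and 136 CPM, so control library 1 cannot show the order there. In the other control library, 32 and 38 cells had 0 and 1 UMIs, with bounds of 39.2 and 37.4 CPM. All 11 classes are parts of the counts that chose the gene, so this is a description.

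The Wnt4+ and Tgfbi+ classes held almost solely knockdown cells, 1362 and 971 against 7 and 32 control cells in Wnt4+ and 931 and 404 against 5 and 38 in Tgfbi+. Adgrg1 was at 145 and 156 CPM in knockdown Wnt4+ cells and at 136 and 141 CPM in Tgfbi+ cells, above its level in each of the 8 classes named before. Slc24a2 and Tmem26 differed more between classes than Adgrg1 did. Slc24a2 was at 47.7 and 59.2 CPM in knockdown Tgfbi+ cells but at 8.28 and 4.90 CPM in Wnt4+ cells and 1.78 and 0.374 CPM in EMT-like cells. Tmem26 was at 27.6 and 35.6 CPM in Tgfbi+ cells and 23.1 and 35.4 CPM in Wnt4+ cells, while its mean in the 8 classes did not exceed 9.18 CPM. Both knockdown libraries lay above both controls in 7 of the 8 classes for Slc24a2 and in 6 of the 8 for Tmem26, and in 8 of 8 for Adgrg3, Plch2 and Etl4. The share of all genes with this order in a class was not computed. In the summed fibroblasts it was 29.2%. Some of these orders rest on few UMIs. Tmem26 had 1 UMI in knockdown library 2 of the class Inflammatory Fibroblasts-1 (0.541 CPM, against 0.193 and 0.318 CPM in controls). Slc24a2 had 3 and 1 UMIs in knockdown Myo1f+ cells.

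Among fibroblast classes, Etl4 was highest in knockdown Wnt4+ cells (273 and 285 CPM) and in the unknown mesenchymal class (185 and 200.5 CPM), and in controls it was highest among the 8 classes in myofibroblast-like cells (64.6 and 87.8 CPM). Plch2 had the same 2 leading classes, at 44.6 and 44.8 CPM in Wnt4+ cells and 47.7 and 38.0 CPM in unknown mesenchymal cells, against 7.50 and 5.42 CPM in EMT-like cells. Adgrg3 had another order. Among fibroblast classes it was highest in Myo1f+ cells, at 24.0 and 23.7 CPM from 0 UMIs in 189 and 151 control cells, and low in Wnt4+ cells at 3.18 and 4.90 CPM.

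**Figure D4:**
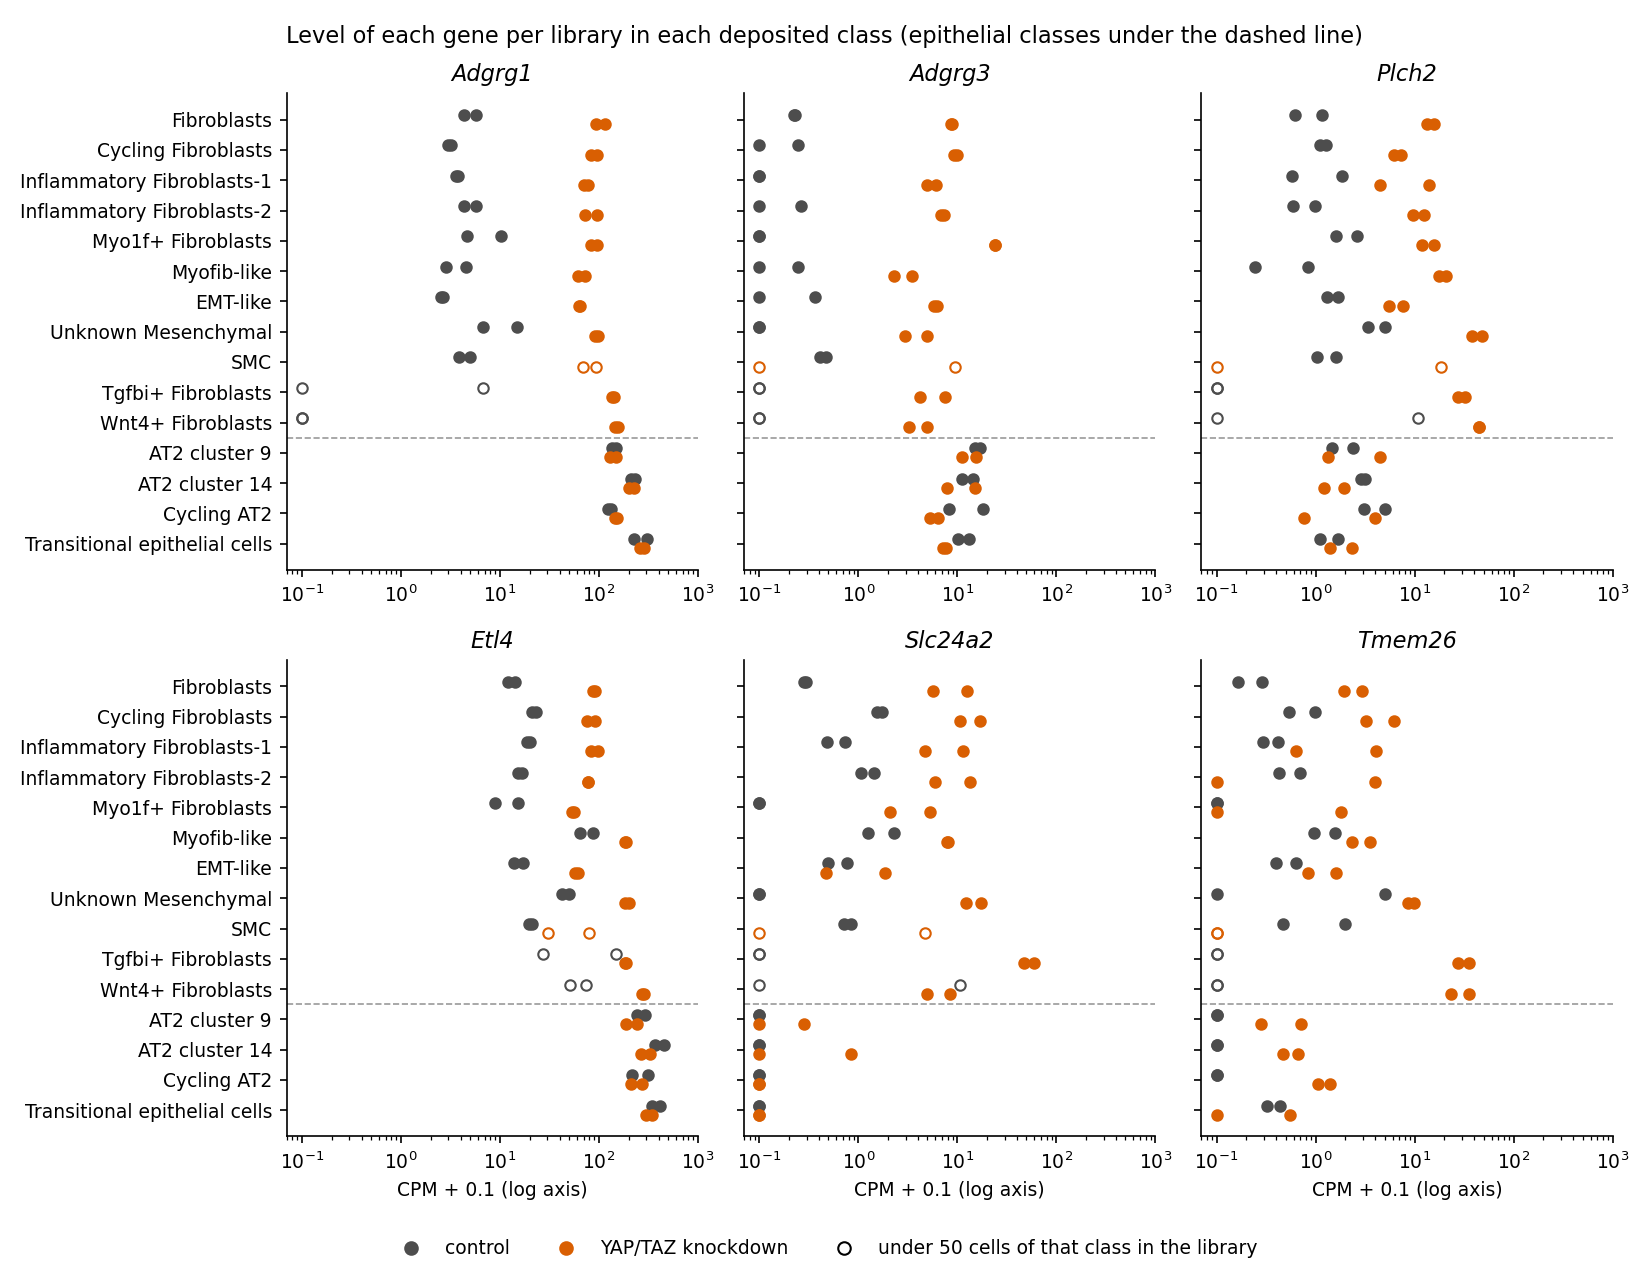
Level of each gene (CPM + 0.1, log axis) in each library and deposited class, control grey and knockdown orange, with open symbols where a library held under 50 cells of the class. Adgrg1 stands between 61.2 and 114.7 CPM in the knockdown libraries of the 8 fibroblast classes with at least 50 cells in every library, while Slc24a2 and Tmem26 have their highest means in Tgfbi+ fibroblasts.

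Because knockdown cells gathered in clusters of their own, levels were also read on both sides of that divide. Deposited clusters 5, 7 and 16 held 19 and 146 control fibroblasts but 3686 and 2524 knockdown fibroblasts. Outside these clusters Adgrg1 went from 4.46 and 3.52 to 68.3 and 73.6 CPM, and inside them it was at 128 and 140 CPM in the knockdowns. The 146 control cells of control library 2 inside these clusters had 4 Adgrg1 UMIs (7.46 CPM, exact 95% interval 2.03 to 19.1), below knockdown cells of the same clusters. In cluster 8, to which all libraries gave at least 347 cells, Adgrg1 went from 3.50 and 4.46 to 59.4 and 60.7 CPM. Tmem26 depended most on these clusters: outside them it went from 0.463 and 0.516 to 2.53 and 2.42 CPM, a log2 difference of 2.34 in place of 4.21. For Slc24a2 the log2 difference outside was 3.01 in place of 4.00, for Plch2 3.77 in place of 4.36, and for Etl4 2.00 in place of 2.46. With the 8 classes weighted equally, the log2 differences were 4.03 for Adgrg1, 7.10 for Adgrg3, 3.41 for Plch2, 1.92 for Etl4, 3.59 for Slc24a2 and 2.17 for Tmem26. Of these 6, 5 were smaller than in the summed fibroblasts, Adgrg3 being the exception.

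Adgrg3 was read against its upstream neighbour by the number of Adgrg3 UMIs per 100 Adgrg1 UMIs. This was 2.08 and 3.08 in control fibroblasts, from 5 and 6 UMIs, and 7.02 and 6.46 in knockdown fibroblasts. Among knockdown classes with at least 50 cells in each library it ran from 2.20 and 3.13 in Wnt4+ cells to 25 and 28.6 in Myo1f+ cells. The class named Fibroblasts lay between them at 9.01 and 7.69. Between these 3 classes the ratio differed by more than between the knockdown libraries of any of them, so the pair did not stand in a fixed proportion.

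The genes around the 6 were examined next, since Adgrg1 and Adgrg3 share a stretch of chromosome. Of 47 other genes within 250 kb of any of the 6, 30 were measured well enough to test in fibroblasts. One of the 30 was called higher and 1 was called lower, 6.67% against 10.6% of all genes, and their median log2 change was 0.05 against 0.01. The 1 that rose was Pank4, which encodes a pantothenate kinase family protein and ends 2177 bp from Plch2 (8.48 and 9.13 against 12.3 and 13.1 CPM; log2 0.53 ± 0.12, adjusted p = 0.0317). The 1 that fell was the noncoding gene Gm31224 downstream of Adgrg3 (3.40 and 3.01 against 1.86 and 1.87 CPM; log2 -0.78 ± 0.18, adjusted p = 0.0322). Both calls were lost when single libraries were left out. Without control replicate 1, knockdown replicate 1 or knockdown replicate 2, Pank4 had adjusted p of 0.0606, 0.0780 and 0.155 and Gm31224 of 0.0661, 0.0901 and 0.102. DESeq2 gave 0.0567 for Gm31224.

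Another adhesion receptor gene of this locus, Adgrg5, lies 31471 bp upstream of Adgrg1. It had 0, 2, 1 and 3 UMIs in the fibroblasts of the 4 libraries and was not tested. These are too few to show whether it moved with its neighbours. On the other side Drc7, which encodes a cilium protein and begins 9853 bp after Adgrg3, had 11, 5, 18 and 16 UMIs (log2 1.67 ± 0.45, adjusted p = 0.0561), which did not pass; without control replicate 1 it did. Next to Etl4, Arhgap21 had a log2 change of -0.26 ± 0.11 (adjusted p = 0.183). Next to Plch2 on its other side, the peroxisome gene Pex10 had -0.07 ± 0.21 (adjusted p = 0.859). Acer2, the ceramidase gene next to Slc24a2, had 0.21 ± 0.20 (adjusted p = 0.515), and Cabcoco1 next to Tmem26 had 0.59 ± 0.51 (adjusted p = 0.479). Gm10564 inside Plch2, Gm12600 next to Slc24a2 and 1700048P04Rik next to Tmem26 had 0 fibroblast UMIs in all libraries. Farther out, 488835 bp from Adgrg3, the gene Ccdc113 had 40, 14, 2 and 3 UMIs (log2 -2.78 ± 0.75, adjusted p = 0.0535), and Gm45812, 112449 bp from Adgrg1, had 17, 17, 5 and 4 (log2 -1.30 ± 0.46, adjusted p = 0.111); neither passed, and both are named for their size after their values were seen.

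**Figure D5:**
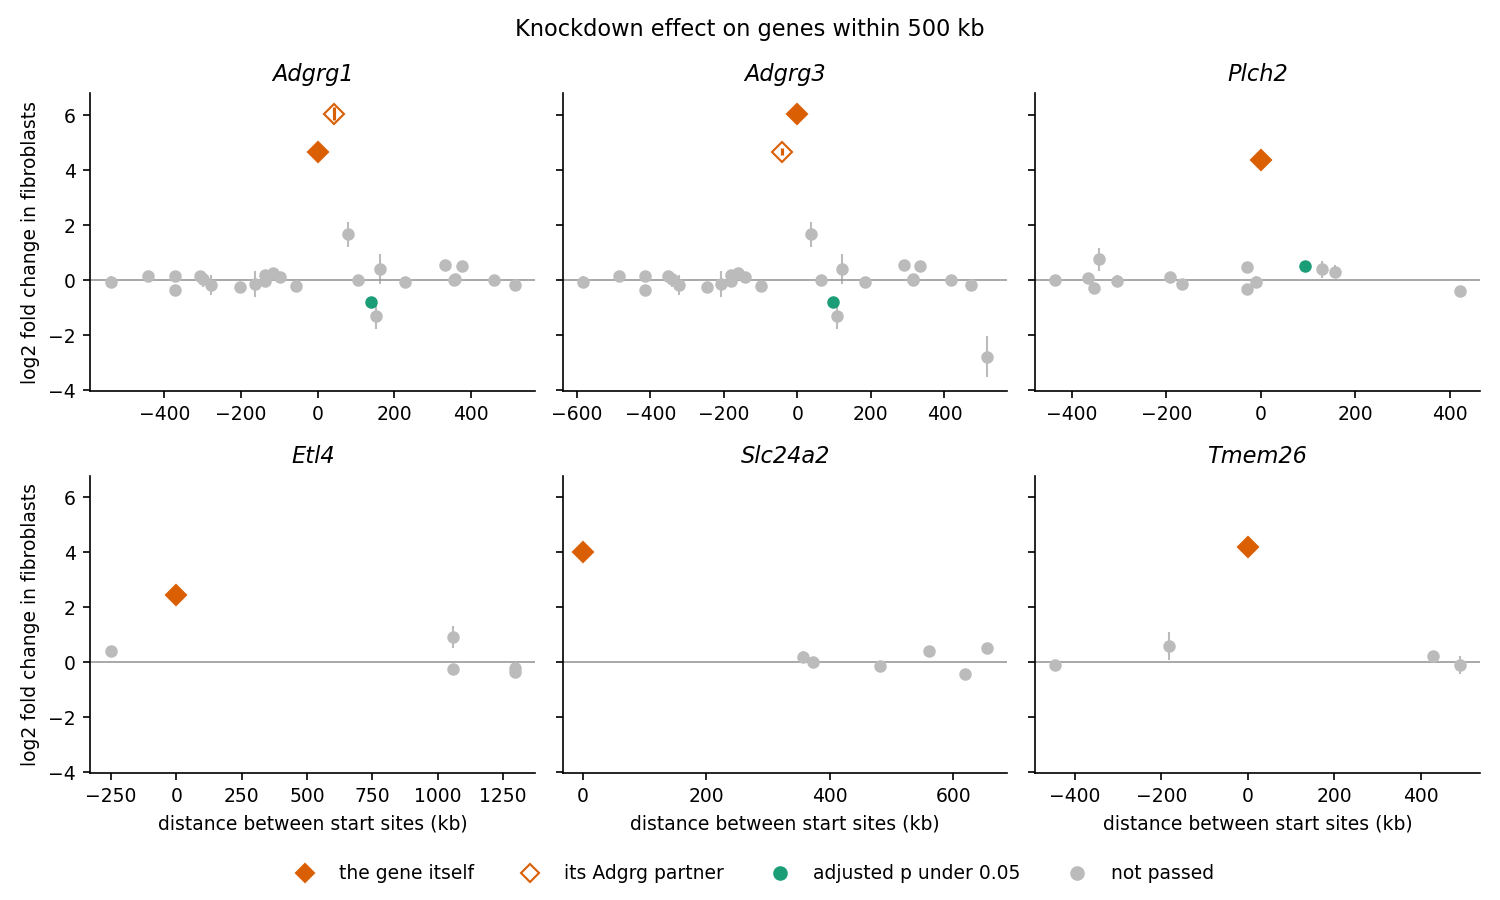
Log2 fold change in fibroblasts (points with SE) of the tested genes within 500 kb of each of the 6 genes, by the distance between start sites along the strand of that gene. Filled diamonds are the gene itself, the open diamond is the other of Adgrg1 and Adgrg3, and green points passed an adjusted p of 0.05 (Pank4 and Gm31224). Besides the diamonds, 3 of the 56 tested genes lie beyond 1 on either side, Drc7 at 1.67, Gm45812 at -1.30 and Ccdc113 at -2.78; the diamonds stand between 2.46 and 6.06.

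Other members of the receptor family moved in both directions. Of 23 other adhesion receptor genes tested in fibroblasts, 3 were called higher and 2 lower, with a median log2 change of -0.05. Over all genes tested 4.42% were called higher and 6.22% lower, the shares to set beside this list and those that follow. Those higher were Adgra1 (2.42 and 2.28 against 9.35 and 9.92 CPM; log2 2.03 ± 0.14, adjusted p = 4.8e-04), Adgrb1 (log2 2.67 ± 0.28, adjusted p = 0.00227) and Adgrb3 (log2 1.23 ± 0.16, adjusted p = 0.00460). The last 2 encode receptors best known from neurons. Those lower were Adgra2, a co-receptor for Wnt ligands (log2 -0.58 ± 0.12, adjusted p = 0.0255), and Adgrd1 (log2 -1.32 ± 0.21, adjusted p = 0.00960).

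The known ligands and partners of Adgrg1 were all detected in fibroblasts, and 0 of the 4 were called by edgeR, with 2 at an unadjusted p under 0.05. Col3a1, the chain of collagen III, was at 2654 and 3687 against 3020 and 2718 CPM, with overlapping groups. Tgm2 (transglutaminase) was at 118 and 132 against 154 and 167 CPM (log2 0.36 ± 0.12, adjusted p = 0.0995). The tetraspanin Cd81 was at 320 and 472 against 522 and 658 CPM (log2 0.58 ± 0.21, adjusted p = 0.126; called by DESeq2 at 0.0207 and by edgeR without control replicate 2 at 7.3e-04), and Cd9 was at 68.4, 89.6, 80.8 and 85.4 CPM (adjusted p = 0.772). The RNA of these ligands was thus present in the fibroblasts of both groups.

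Among 12 other phospholipases C, 0 rose and 1 fell, Plcb4 (12.6 and 11.4 against 5.65 and 4.89 CPM; log2 -1.19 ± 0.14, adjusted p = 0.00318). Of 24 genes of phosphoinositide and protein kinase C signalling, 1 rose and 3 fell. Prkcb, a kinase of the conventional class, rose (log2 1.29 ± 0.19, adjusted p = 0.00689) while Prkca, of the same class, fell (log2 -0.77 ± 0.12, adjusted p = 0.00784; 0.0552 without knockdown replicate 2). The diacylglycerol kinases Dgkg (log2 -0.87 ± 0.15, adjusted p = 0.0123) and Dgkh (log2 -0.50 ± 0.11, adjusted p = 0.0288) fell as well. The call of Dgkh was lost without control replicate 1 (adjusted p = 0.0599) and without either knockdown replicate (0.0833 and 0.205).

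Among 14 other calcium exchangers and pumps, 1 rose and 2 fell, with a median log2 change of 0.12. Slc8a1, a widely expressed sodium-calcium exchanger, fell from 97.1 and 94.3 CPM to 41.7 and 40.5 CPM (log2 -1.22 ± 0.10, adjusted p = 0.00110). Slc24a3, a close relative of Slc24a2, fell from 8.82 and 8.80 to 5.35 and 4.21 CPM (log2 -0.88 ± 0.15, adjusted p = 0.0130; 0.0509 without knockdown replicate 2). Slc8a3 rose (3.14 and 2.94 against 4.48 and 4.80 CPM; log2 0.61 ± 0.15, adjusted p = 0.0446), a call that was lost in DESeq2 (0.0851). It was also lost without control replicate 2 (0.0578), knockdown replicate 1 (0.0934) or knockdown replicate 2 (0.176), and with cells above 20000 UMIs left out (0.0510). Exchanger genes thus moved in opposite directions. Over all genes 4.42% were called higher and 6.22% lower. These lists hold few genes and were chosen with earlier results known, so no count is read as setting a list apart.

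In the epithelium, where 0.681% of all genes were called higher and 0.76% lower, these lists gave 0 rises and 4 falls. Of 13 adhesion receptor genes tested there, Adgrg2 (log2 -2.46, adjusted p = 0.0383) and Adgrl3 (log2 -1.30, adjusted p = 0.0383) were called lower. Of 10 phospholipases C, Plcb1 (log2 -1.33, adjusted p = 0.0112) and Plce1 (log2 -0.91, adjusted p = 0.0468) were called lower. Of the ligands, kinase and exchanger lists 0 of 4, 0 of 20 and 0 of 9 were called by edgeR, with 2, 3 and 2 at an unadjusted p under 0.05.

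The genes whose pattern over cell classes and libraries was most like that of Adgrg1 were ranked by Pearson's r of log2(CPM + 1), over 52 library-by-class sums from 13 classes and 15900 genes. The sums share libraries and groups, so r is a description. Adgrg3 came first (r = 0.92) and Etl4 second (r = 0.89). These 2 share with Adgrg1 an epithelial level in both groups and a fibroblast level in the knockdown. Both were chosen, like Adgrg1, for being higher in knockdown fibroblasts, and the sums include fibroblast classes. Their ranks are thus in part set by that choice and are not read as evidence of shared control. The next were Pcbd1 (r = 0.82), 2610507B11Rik and Pfn1 (both 0.81), Card19, AC149090.1 and Src (all 0.80) and Skp1a and Rnf5 (both 0.78). Pfn1 encodes the actin-binding protein profilin and Src a tyrosine kinase; their fibroblast log2 changes were 0.93 and 0.54. Plch2 (r = 0.41), Tmem26 (0.15) and Slc24a2 (0.10), with little or no epithelial level, had another pattern.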

How the data were processed

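RNA was measured in droplets of single cells or nuclei with a 10x kit for joint RNA and chromatin libraries, per the labels' protocols, which also name a column RNA extraction; the chromatin data were not analysed here. The deposited matrix holds whole UMI counts per gene and cell, and the submitters' processing notes name the builds GRCm38 and mm10; the sources used here give no aligner or counter and do not say how introns and strand were handled. Classes, clusters, the percent of mitochondrial counts and a doublet enrichment ratio per cell are the authors' deposited columns, used as they stand; 53 other metadata columns were not used. No doublets were removed here beyond the deposited filter, and leaving out cells above 20000 UMIs was tried as an alternative.

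Counts were summed per library over fibroblast classes and over epithelial classes. The fibroblast sum also took in the smooth muscle, myofibroblast-like, EMT-like and unknown mesenchymal classes, without mesothelial cells. The epithelial sum took the AT2, cycling AT2 and transitional epithelial classes. The epithelial sum left out clusters 19 and 23 of the deposited AT2 class, 1832 cells that carried fibroblast markers. Sums were tested with edgeR 4.0.16 in R 4.3.3 (quasi-likelihood, TMM, filterByExpr), control against knockdown with 2 libraries each, and p-values were adjusted by Benjamini-Hochberg over all genes tested, with a threshold of 0.05. The difference between compartments was an interaction term with library as a block. Compartment levels use TMM library sizes; class and cluster levels, and percentages between compartments, use plain totals. DESeq2 1.42.0, limma 3.58.1 (voom), other size factors, other filters and left-out libraries were alternatives. The edgeR steps were tested on simulated data.

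The 6 genes and all lists were chosen with earlier results of these data known. Named were the 6 genes, called or nearest neighbours, up to 4 called genes by log2 change per list (all where 5 or fewer were measured), the 10 genes most like Adgrg1, and the targeted genes. Plce1, Adgrg2, Adgrl3, Plcb1, Gna14, Adgrf5, Ccdc113 and Gm45812 were named after their values were seen. GENCODE positions matched 32158 of 32285 gene IDs, and RefSeq promoter windows matched all 6 genes. The results of a further gene list are not reported here.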

Additional observations from a re-analysis of the deposited data

Results flagged for a closer look

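Of 100 listed and targeted genes tested, 8 (8%) had a fibroblast change that differed from the epithelial change in edgeR's interaction test, against 3.55% of all 17188 genes; the lists were chosen with earlier results known, and nothing is read from that share. The difference (fibroblast minus epithelial, log2 ± SE) was 2.90 ± 0.58 for the adhesion receptor Adgrg2 (adjusted p = 0.0202), 1.25 ± 0.25 for Adgrl3 (0.0206) and -0.63 ± 0.12 for Adgrf5 (0.0148). For Adgrg2 and Adgrl3 the change was an epithelial fall (log2 -2.46 and -1.30), with 0.42 and -0.04 in fibroblasts. Adgrf5 had -0.50 in fibroblasts and 0.10 in epithelium.

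Tgm2, the transglutaminase that Adgrg1 binds, differed by 0.72 ± 0.11 (adjusted p = 0.00564), with 0.36 in fibroblasts and -0.39 in epithelium, although neither change passed its own test. Plcb1 differed by 1.17 ± 0.17 (0.00351) and Gna14, a G protein alpha subunit, by 1.28 ± 0.30 (0.0397), both lower in the epithelium. The exchanger Slc8a1 differed by -0.88 ± 0.19 (0.0319), and the targeted Yap1 by -0.57 ± 0.13 (0.0316), from -0.71 in fibroblasts and -0.17 in epithelium.

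Adgrg3 and Etl4 stood lower in both epithelial knockdown libraries than in both epithelial controls (log2 -0.31 and -0.28), opposite to their fibroblast change; this difference in direction was not tested, since the fibroblast change chose the genes.

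Cells outside both compartments also carried some of the genes. In the mixed clusters 19 and 23, Adgrg1 was at 98.9 and 87.1 CPM in controls and at 134.5 and 165.9 CPM in knockdowns. Tmem26 was at 0.304 and 0.143 against 2.40 and 4.54 CPM, from 2, 1, 14 and 6 UMIs. The other genes also stood higher in both knockdown libraries there. Adgrg3 was at 7.28 and 3.99 against 11.3 and 9.85 CPM, and Plch2 at 3.19 and 2.42 against 8.24 and 5.30 CPM. Etl4 was at 197 and 151 against 213 and 205 CPM. Slc24a2 was at 1.06 and 0.285 against 8.24 and 2.27 CPM, from 7, 2, 48 and 3 UMIs. Fibroblast markers in these clusters had medians of 58.3%, 61.8%, 52.7% and 63.4% of their fibroblast level. In cells labelled mesothelial, Adgrg1 had 1 and 0 UMIs in 56 and 45 control cells, and 189.8 and 133.7 CPM in 27 and 15 knockdown cells. There Adgrg3 had 0 UMIs in all libraries, Plch2 had 0, 0, 1 and 2, and Tmem26 had 0, 1, 1 and 0. Etl4 was at 155 and 89.4 against 200 and 76.4 CPM. Slc24a2 was at 28.1 and 12.8 against 9.99 and 9.55 CPM, from 6, 2, 2 and 1 UMIs.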

How the results depend on the processing

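Over the alternatives the fibroblast log2 difference ran from 4.03 to 4.83 for Adgrg1, 5.90 to 7.10 for Adgrg3, 3.41 to 4.63 for Plch2, 1.92 to 2.53 for Etl4, 3.01 to 4.14 for Slc24a2 and 2.17 to 4.43 for Tmem26. Equal class weights, the cells outside clusters 5, 7 and 16, and the removal of cells with shared barcodes were chosen after seeing the data. Without shared-barcode cells the values were 4.65, 6.29, 4.41, 2.41, 3.98 and 4.23. None of the epithelial tests of Adgrg1, Adgrg3, Plch2 and Etl4 was passed in the alternatives run, but directions turned. Leaving out 1 library moved Adgrg1 between -0.10 (without knockdown replicate 2; -0.09 without control replicate 1) and 0.16, and Plch2 between -1.42 and 0.13 (0.11 without knockdown replicate 2). With the mixed clusters added, Adgrg3 had 0.075 and Plch2 0.18; without cluster 32 Plch2 had 0.19. In fibroblasts, leaving out 1 library moved Col3a1 between -0.36 and 0.11 and Cd9 between -0.11 and 0.28, and Cd9 had -0.037 without the EMT-like and unknown mesenchymal classes.

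The number of genes called, 1860 in fibroblasts, was 998 (without knockdown replicate 2), 1176 (without knockdown replicate 1) and 3666 (without control replicate 2), where 54.2% of calls were rises in place of 41.6%. The epithelial count of 201 was 528 without a filter, 780 with mixed clusters, 129 without cluster 32 and 136 to 684 with 1 library left out. The count of 610 for the difference was 284 with DESeq2, 1303 without a filter, 1010 with mixed clusters and 249 to 975 with 1 library left out. Neighbours called (2) numbered 1 with DESeq2 and 0 to 5, and listed genes called (14, a list not reported here included) 9 to 25, with 1 library left out. The cause was not tested. Knockdown minus control shares moved with depth, from 2000 to 3000 UMIs to no thinning: Adgrg1 16.9, 22.6 and 37.0 points; Adgrg3 1.11, 1.67 and 3.54; Plch2 4.16, 5.17 and 9.03; Etl4 17.7, 22.5 and 33.8; Slc24a2 1.40, 1.95 and 3.14; Tmem26 1.95, 2.13 and 3.79. Yap1 lost its call without knockdown replicate 2 (adjusted p = 0.0559 by edgeR).

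With the replicate number as a block, 5820 fibroblast genes, 329 epithelial genes, 1250 differences, 10 neighbours and 44 listed genes were called, and Wwtr1 had an adjusted p of 0.0108. The labels give only a number, and same-numbered libraries had deviations correlated at 0.26 over 17481 genes in fibroblasts and 0.13 over 13952 in epithelium, from 2 pairs, which does not establish a pairing.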
